A study of Mus musculus with 4 samples.

Results

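Tubulin isotype genes were followed in the mouse myoblast line C2C12, whose cells can fuse into multinucleated muscle fibres in culture, with and without knockdown of the chromatin protein gene Sfmbt1. The members were the probe sets that the array annotation assigns to exactly 1 of 10 named alpha- and beta-tubulin genes. This gave 20 probe sets for 9 of the 10 genes, out of 34945 probe sets with 1 gene and 18193 genes in all. The gene without a probe set of its own was Tuba1c, whose probe sets are also assigned to Gm6682.

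Alpha- and beta-tubulin pair into the dimers from which microtubules are built. Mammals have several genes for each, and the proteins they encode differ mostly in their acidic carboxy-terminal tails, where enzymes add or remove tyrosine and glutamate residues. Cells adjust the stability of tubulin messenger RNA to the amount of unpolymerised tubulin. When myoblasts become muscle fibres, microtubules leave the centrosome, grow from the nuclear envelope and line up along the fibre.

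The control group was 2 cultures stably transduced with the lentiviral vector pLKO.1 carrying a control short hairpin RNA (shRNA), which one label calls scramble and another shLuc. The knockdown group was 2 cultures stably transduced with pLKO.1 shSFMBT1. All 4 were kept in medium with 20% serum and 2 ug/ml of puromycin, and the labels call the cells myoblasts. Each culture was grown separately, per the series text, and its total RNA was hybridised to 1 Affymetrix array. The labels do not say whether the cultures descend from separate transductions or how many hairpins targeted Sfmbt1. The p-values therefore concern these cultures only, and their error is drawn in large part from other probe sets of similar level.

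The values are the authors' linear signal intensities. Differences are knockdown minus control on the log2(signal + 16) scale, which understates the change of dim probe sets. They were tested with limma over the 22893 probe sets in the upper 60% of mean level, and a probe set is called where its Benjamini-Hochberg adjusted p lies under 0.05. With 2 arrays in each group, an exact permutation test of a single probe set cannot go below p = 0.333. An array's background limit, set at the 95th percentile over its 27 bacterial spike-in probe sets, was 42.9 to 69.3, and knockdown replicate 1 had the highest limit and the lowest share of probe sets above it (56.2%, against 64.3% to 67.6% on the other arrays). Sfmbt1 had a lower signal on both knockdown arrays in all 5 of its probe sets, 4 of which were tested. Probe set 1422894 was called, at 259.8 ± 25.6 with the control shRNA and 45.3 ± 41.4 with the Sfmbt1 shRNA (mean ± SD, n = 2; log2 -2.35, SE 0.44, adjusted p = 0.0219), with 1 of the knockdown arrays in the background range. The remaining tested probe sets of Sfmbt1 were not called, with 43.7%, 67.7% and 69.2% of the control signal left (log2 -1.11, -0.54 and -0.50, adjusted p = 0.0594, 0.333 and 0.339). The value of 1422894 ran from -3.10 without knockdown replicate 1 to -1.60 without knockdown replicate 2, and was -1.91 with a floor at the background limit. Its call was lost with median centring (adjusted p = 0.0526), quantile normalization (0.0573), no level filter (0.165) and no variance trend (0.246).

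Tuba4a was the only tubulin gene with a called probe set, at 150.5% of the control after Sfmbt1 knockdown. Of its 3 tested probe sets, 1 was called. Of the 17 tubulin probe sets that passed the level filter, which covered 9 genes, 1 was called higher (5.88%) and 0 were called lower. Among all 22893 tested probe sets 0.961% were called higher and 1.43% lower (2.39% in either direction). The share of these calls that were higher was 40.1%, and 54.6% with each array centred on its median. With 1 value per gene, from its brightest probe set, 0 of 9 tubulin genes were called, beside 1.44% of all genes higher and 1.61% lower. At an unadjusted p under 0.05 the tubulin count was 5 of 17 in limma, and 3542 of all tested probe sets (15.5%). The median difference of the 17 was 0.17 log2 units, beside -0.01 over all tested probe sets, and 12 of the 17 were positive, beside 49.3% of all. The signals of the knockdown arrays lay above both control arrays in 8 of the 17 (47.1%, against 21.6% of all) and below both in 2 (11.8%, against 24% of all; in either direction 45.6% of all). The 3 probe sets under the filter were 1 of Tuba8 and 2 of Tubb4b, each at or under background on at least 2 of the 4 arrays.

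**Figure D1:**
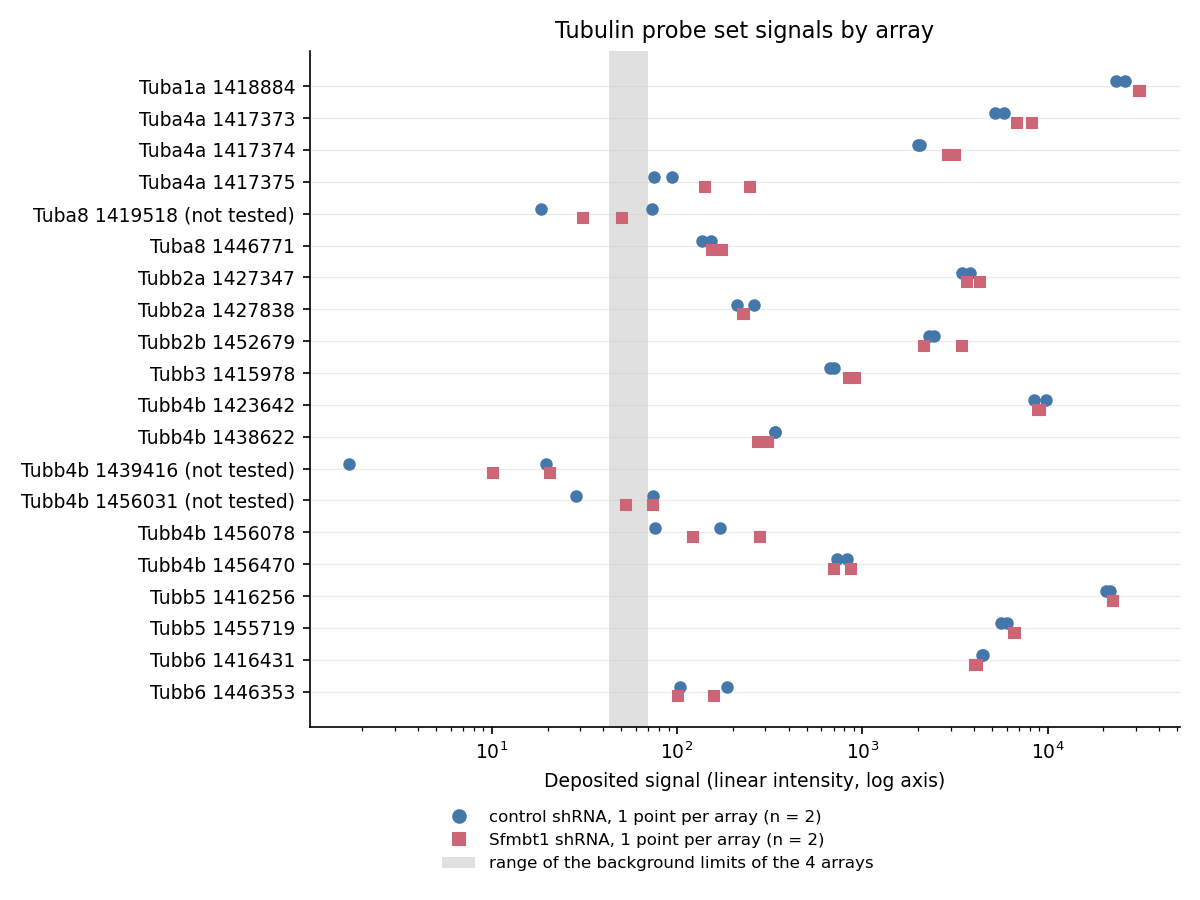
Deposited signal (linear intensity, log axis) of the 20 tubulin probe sets on each of the 4 arrays, with circles for the 2 control arrays, squares for the 2 knockdown arrays and a grey band over the background limits of 42.9 to 69.3. The groups separate in all 3 Tuba4a probe sets and overlap in both of Tubb2a, and levels cannot be compared between probe sets.

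The alpha-tubulin probe sets all had positive differences, 5 of 5, with a median of 0.45 log2 units and a range of 0.17 to 1.02. Of the 5, 3 were of Tuba4a, 1 of Tuba1a and 1 of Tuba8, so the median rests mostly on Tuba4a. The called one was of Tuba4a. Tuba4a encodes an alpha-tubulin that is made without the carboxy-terminal tyrosine found on most others. In probe set 1417374 its signal was 2038.8 and 2000 with the control shRNA against 2906.6 and 3171.5 after knockdown. Each knockdown array exceeded each control array, and the spread within a group was small beside the gap. The rise was 0.58 log2 units (SE 0.12, 95% interval 0.32 to 0.85, adjusted p = 0.0314). The call was lost without control replicate 1 (log2 0.60, adjusted p = 0.118) and without control replicate 2 (0.57, adjusted p = 0.117). It was also lost without the level filter (adjusted p = 0.102) and without the trend of variance on level (0.282).

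The other Tuba4a probe sets also had positive differences but were not called. In 1417373, the brightest of them, the signal was 5180.1 and 5811.8 with the control shRNA against 6795.1 and 8233.4 after knockdown (log2 0.45, SE 0.13, 95% interval 0.16 to 0.73, adjusted p = 0.104). In 1417375, the dimmest, it was 75.4 and 94.3 with the control shRNA against 246.4 and 141.6 after knockdown (log2 1.02, SE 0.32, 95% interval 0.31 to 1.73, adjusted p = 0.144). The groups did not overlap in either of them. The size in these probe sets depended on which knockdown array was used. Without knockdown replicate 1 the difference of 1417373 was 0.58 (adjusted p = 0.00465), without knockdown replicate 2 it was 0.31 (0.278), and without control replicate 1 it was 0.36 (0.474). That of 1417375 was 0.65 without knockdown replicate 1 (adjusted p = 0.479) and 1.39 without knockdown replicate 2 (0.0115). With a tighter filter, the upper 40%, 1417373 passed (adjusted p = 0.0434), and it also passed with each array centred on its median (0.0277) and with quantile normalization (0.0344). With the log2 signals of the 3 probe sets averaged to 1 value for the gene, Tuba4a was higher by 0.68 (SE 0.12, adjusted p = 0.0437).

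**Figure D2:**
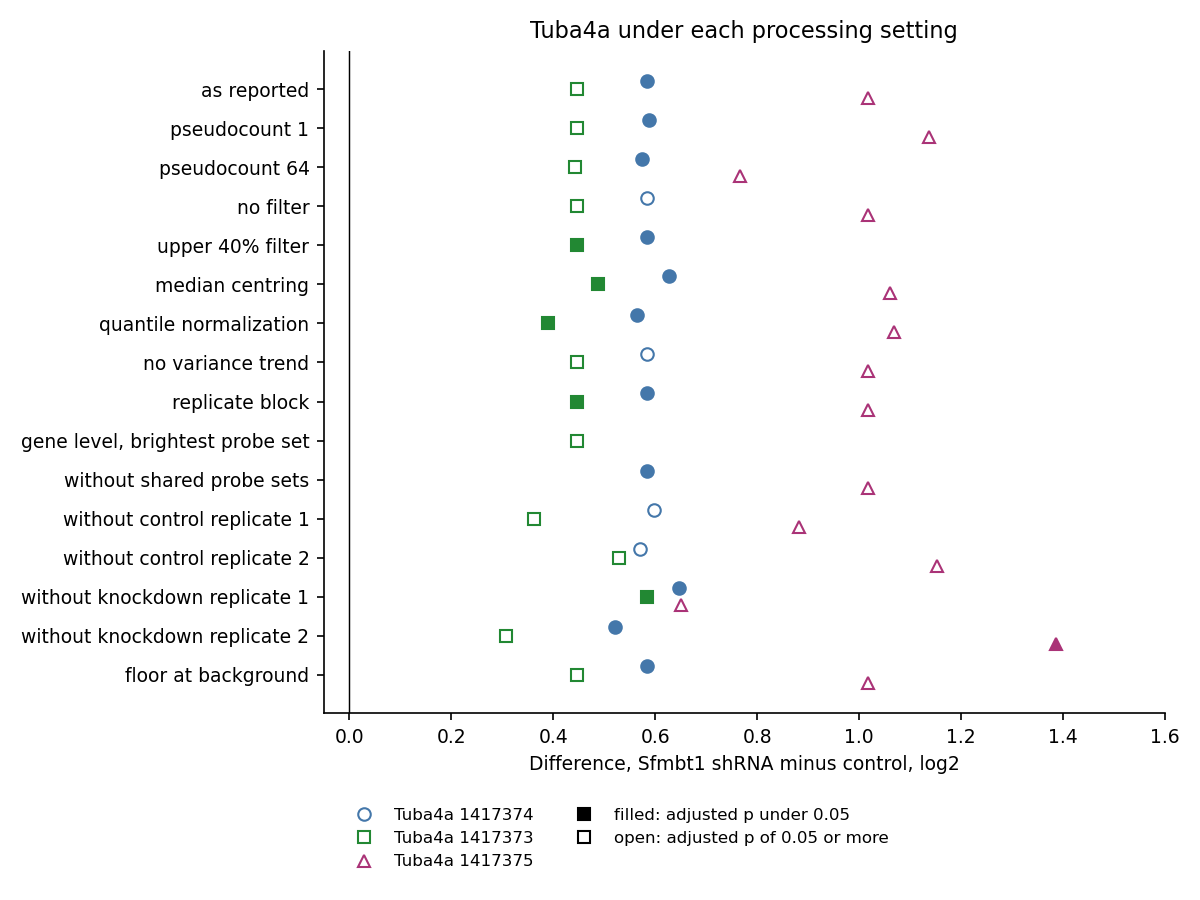
Difference of each Tuba4a probe set (log2, horizontal axis) under the reported processing and under each alternative that tested it, with filled symbols where the adjusted p was under 0.05. The 3 probe sets stayed above 0 in every setting, between 0.31 and 1.39, while 1417374 was filled in the reported setting and in 10 of the 14 others.

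The promoter window of Tuba4a, the gene with the called probe set, is shown with that of Tubb4b. Tubb4b was the member whose brightest probe set lay nearest to 0. Each window runs from 250 bases before the gene's start to 50 after it, from RefSeq on build GRCm38.p6, and is printed 5′ to 3′ on the gene's strand. Capitals mark matches to the E-box motif CANNTG, which is the same on both strands and is the kind of site that MyoD and myogenin bind. Tuba4a lies at chr1:75219245-75219544 on the minus strand and Tubb4b at chr2:25224653-25224952 on the minus strand.
Tuba4a: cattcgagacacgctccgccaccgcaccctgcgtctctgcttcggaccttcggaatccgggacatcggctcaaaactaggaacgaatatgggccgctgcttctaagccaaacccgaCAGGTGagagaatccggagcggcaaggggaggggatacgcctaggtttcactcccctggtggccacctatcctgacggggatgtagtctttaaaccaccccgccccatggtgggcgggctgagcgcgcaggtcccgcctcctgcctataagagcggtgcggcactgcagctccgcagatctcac
Tubb4b: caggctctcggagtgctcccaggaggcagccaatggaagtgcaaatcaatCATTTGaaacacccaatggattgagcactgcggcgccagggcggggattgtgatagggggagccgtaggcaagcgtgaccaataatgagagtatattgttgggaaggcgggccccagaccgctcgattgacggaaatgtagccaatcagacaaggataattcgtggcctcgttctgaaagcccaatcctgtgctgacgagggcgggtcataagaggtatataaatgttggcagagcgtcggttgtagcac
The Tuba4a window held 1 E-box, CAGGTG, with its first base at -134 from the start, and the Tubb4b window 1, CATTTG, at -200. Of the 8 tubulin genes whose windows were counted, 7 held an E-box and Tubb3 held none, while 72.3% of all 32851 windows of this length held one. The CCAAT box, searched as CCAAT on both strands, had 5 matches in Tubb4b and 0 in Tuba4a and was present in 37.4% of all windows. The GC box, GGGCGG on both strands, was in 6 of the 8 and in 35.7% of all, and the TATA box, TATAAA on both strands, in 2 of the 8 (Tubb2a and Tubb4b) and in 13.6% of all. No window of Tubb2b or Tubb6 was counted, so nothing is said of their promoters. A match is a description of the letters only.

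Next to Tuba4a in the RefSeq order of protein-coding genes lies Stk16, which encodes a serine/threonine kinase. Its tested probe set read 442.2 and 632.4 with the control shRNA against 976.3 and 848.9 after knockdown, without overlap (log2 0.77, adjusted p = 0.0543), and was not called. The nearest tested genes beyond, Glb1l and Dnajb2, differed by -0.31 (adjusted p = 0.726) and -0.12 (adjusted p = 0.789) in their brightest probe sets. In the same order Tuba1a lies between Tuba1b and Tuba1c, and Tubb2a next to Tubb2b.

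Tuba1a, an alpha-tubulin gene best known from the developing brain, had 1 probe set of its own, 1418884. Its signal was 23308 and 26132.4 with the control shRNA against 31608.5 and 31089.5 after knockdown. The knockdown arrays lay above the control arrays (log2 0.34, SE 0.11, 95% interval 0.10 to 0.59), but the probe set was not called (adjusted p = 0.154). Centring each array on its median gave an adjusted p of 0.0334. This is among the brightest probe sets of the array (percentile 99.9), and its suffix, _x_at, marks probes that may also bind similar transcripts. How much of it comes from the near-identical Tuba1b and Tuba1c RNAs was not tested. Probe set 1433584, shared by Tuba1a and Gm6682 and not tested, read 160.7 and 172.8 with the control shRNA against 118.8 and 192.1 after knockdown. Its groups overlapped (log2 -0.13).

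For Tuba1c the annotation leaves only probe sets shared with Gm6682, which were not tested. Probe set 1416128 read 424.9 and 308 with the control shRNA against 472.1 and 589.7 after knockdown, without overlap. Probe set 1448232 read 1780.2 and 1956.7 with the control shRNA against 1931.1 and 2320.7 after knockdown, with overlap. Tuba8, an alpha-tubulin gene expressed in heart, skeletal muscle and testis, gave 153.3 and 136 with the control shRNA against 174.8 and 153.9 after knockdown in probe set 1446771. The groups were separated by less than 1 unit of signal, and the difference was 0.17 (95% interval -0.39 to 0.73, adjusted p = 0.820). Its other probe set was above background on 2 of 4 arrays.

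No beta-tubulin probe set was called, and the 12 tested had a median difference of 0.05 log2 units and a range of -0.20 to 0.63, with 7 of 12 positive. In limma 1 of the 12, that of Tubb3, had an unadjusted p under 0.05. Tubb5 is the beta-tubulin gene expressed in nearly all cells. Its brighter probe set, 1416256, gave 20665.9 and 21595.9 with the control shRNA against 22542 and 22493.9 after knockdown, and the interval of the difference ran from -0.14 to 0.33 (log2 0.09, adjusted p = 0.749). In 1455719 the signal was 5571.8 and 5999.4 with the control shRNA against 6617.3 and 6679.3 after knockdown (log2 0.20, 95% interval -0.04 to 0.45, adjusted p = 0.431). The knockdown arrays were above the control arrays in both probe sets, though quantile normalization turned the sign of 1416256 (log2 -0.04).

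Tubb4b, which is also widely expressed and is found in cilia, had 6 probe sets, of which 4 were tested. The brightest, 1423642, read 8440.9 and 9836.8 with the control shRNA against 8927.6 and 9095.9 after knockdown. The knockdown arrays lay between the control arrays, and the difference was -0.02 (SE 0.12, 95% interval -0.27 to 0.24, adjusted p = 0.969). In fold terms the interval ran from 0.827 to 1.18, and median centring turned the sign to 0.03. The remaining tested Tubb4b probe sets differed in sign, with -0.20 in 1438622, 0.01 in 1456470 and 0.63 in 1456078, and adjusted p-values of 0.665, 0.982 and 0.502. Each of these has the suffix _x_at, so its probes may also bind similar transcripts. In 1456078 the signals were 75.9 and 169.6 with the control shRNA against 121.4 and 281.7 after knockdown, and its difference turned on single arrays. It was 1.19 without knockdown replicate 1 (adjusted p = 0.0148) and 0.07 without knockdown replicate 2 (0.971), and 0.12 without control replicate 1 (0.959) and 1.14 without control replicate 2 (0.154).

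Tubb2a and Tubb2b encode closely similar beta-tubulins that are abundant in neurons. Tubb2a gave 3432 and 3826 with the control shRNA against 3650.3 and 4295.2 after knockdown in probe set 1427347 (log2 0.13, 95% interval -0.15 to 0.41, adjusted p = 0.696). In 1427838 the difference was -0.04 (adjusted p = 0.959), and its sign turned with median centring and with quantile normalization. The groups overlapped in both. Tubb2b read 2286.3 and 2437.5 with the control shRNA against 2157.9 and 3456.7 after knockdown, 1 array below and 1 above the control arrays. Its difference of 0.21 (SE 0.18, adjusted p = 0.643) depended on that spread. It was 0.55 without knockdown replicate 1 (adjusted p = 0.0137) and -0.13 without knockdown replicate 2 (adjusted p = 0.792).

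Tubb3, the beta-tubulin gene used as a marker of neurons, was read at 700.9 and 667.6 with the control shRNA against 846.6 and 912.5 after knockdown. The groups did not overlap, and the knockdown stood at 129% of the control (log2 0.35, SE 0.14, 95% interval 0.04 to 0.67), but the probe set was not called (adjusted p = 0.262). Under the alternatives its adjusted p lay between 0.108 and 0.599 and its difference between 0.30 and 0.41. Tubb6 encodes a more divergent beta-tubulin. In probe set 1416431 it read 4506.6 and 4446 with the control shRNA against 4073.5 and 4182 after knockdown, with both knockdown arrays below the control arrays. That difference was small and not called (log2 -0.12, SE 0.11, 95% interval -0.36 to 0.13, adjusted p = 0.682). The dim probe set 1446353 gave -0.13 with overlapping groups (95% interval -0.86 to 0.61, adjusted p = 0.909). It was 0.25 without control replicate 1 and 0.16 without knockdown replicate 1.

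**Figure D3:**
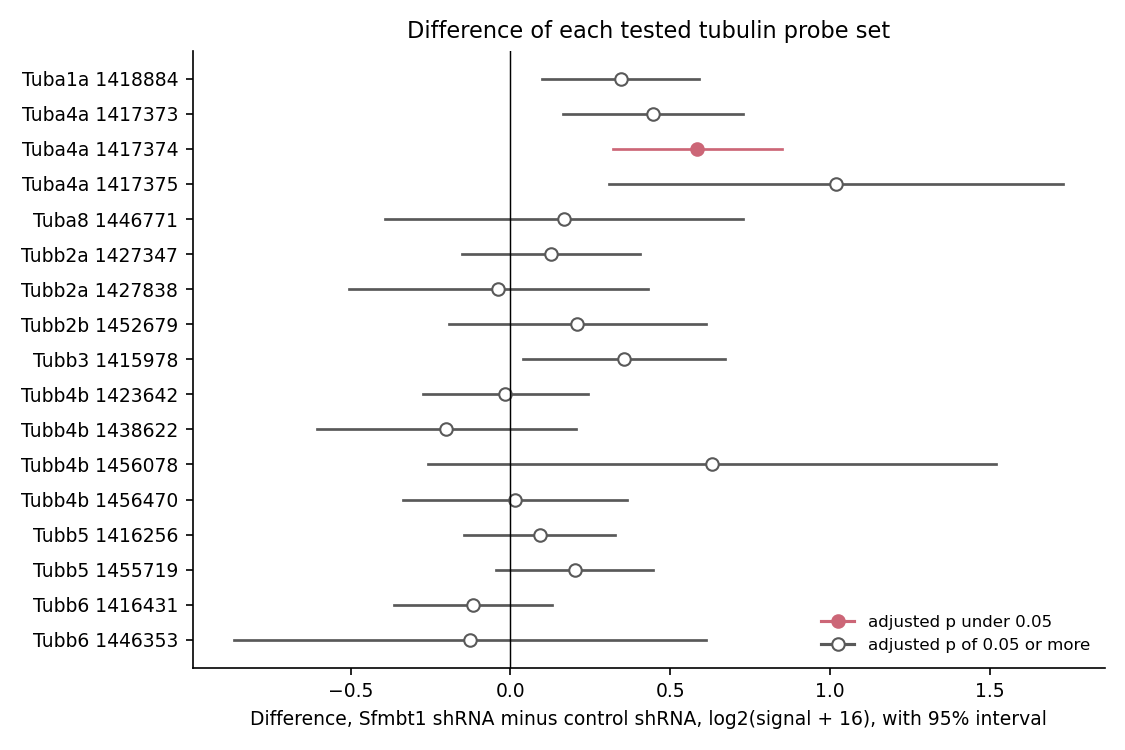
Difference of each of the 17 tested tubulin probe sets (knockdown minus control, log2, horizontal axis) with its 95% interval from limma and the called one, Tuba4a 1417374 (0.58, interval 0.32 to 0.85), filled. The intervals of Tuba1a, Tuba4a and Tubb3 lie above 0 and those of the other genes include it.

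Set among all tested probe sets, the tubulins spread from dim to very bright, and the 4 highest differences were the 3 of Tuba4a and that of the dim Tubb4b 1456078. Whether the response of Tuba4a differed from that of the other tubulins was not tested. In these bulk samples more RNA per cell and more cells that express a gene cannot be told apart.

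**Figure D4:**
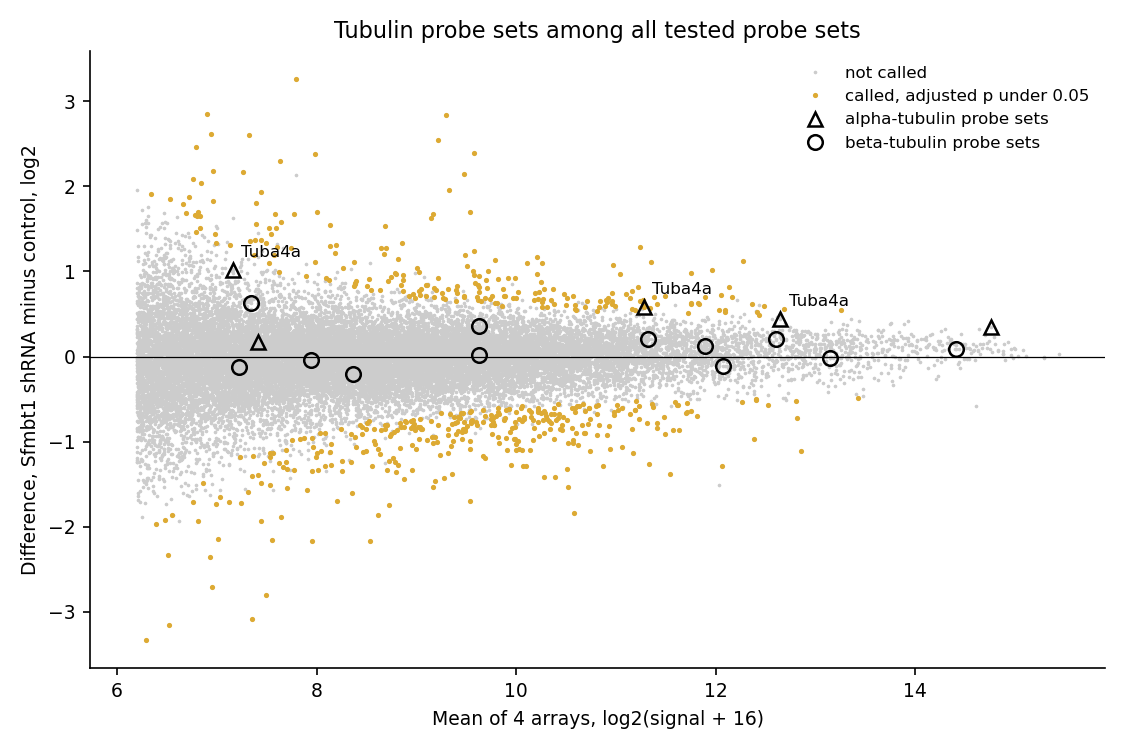
Difference (log2, vertical axis) against mean level over the 4 arrays (log2, horizontal axis) for the 22893 tested probe sets, with called ones in yellow, alpha-tubulins as triangles and beta-tubulins as open circles. The called Tuba4a probe set lies at the inner edge of the called ones, and the beta-tubulins lie among the uncalled.

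Other genes of the tubulin and microtubule system were counted in 7 lists, from which 6 probe sets of 5 genes were called. Their counts are given against the background of 0.961% called higher and 1.43% called lower. Among the other tubulins, which include the gamma-, delta- and epsilon-tubulins of centrosomes and basal bodies, 0 of 7 tested probe sets were called in either direction and 0 had an unadjusted p under 0.05 in limma. All 7 differences were negative, with a median of -0.20, while 49.3% of all tested probe sets had a positive one. The groups overlapped in each of the 7, whereas they did not in 45.6% of all. The smallest p was that of Tubb4a, a beta-tubulin gene of brain, at 246.5 and 320.7 with the control shRNA against 246.6 and 183.8 after knockdown (log2 -0.38, SE 0.23, adjusted p = 0.472).

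The folding list holds the chaperonin CCT, prefoldin and the tubulin cofactors, which bring new tubulin chains to the dimer. Of its 47 tested probe sets 0 were called, with 8 at an unadjusted p under 0.05 in limma. A positive difference was found in 40 of the 47 (85.1%, beside 49.3% of all), with a median of 0.11 log2 units, and 36.2% had both knockdown arrays above the control arrays, beside 21.6% of all. Pfdn4, a prefoldin subunit gene, had the smallest p, at 1126.8 and 1376.5 with the control shRNA against 1730.3 and 2188.4 after knockdown (log2 0.64, SE 0.16, adjusted p = 0.0576). Without knockdown replicate 1, 6 probe sets of this list passed, all higher, where 730 of all 22893 were called higher. With median centring 3 passed, where 401 of all were called higher.

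Of 43 tested probe sets for enzymes that modify tubulin, 0 were called higher and 1 lower (2.33%). That was Ttll11, a gene for a polyglutamylase of the tubulin tyrosine ligase-like family, which fell from 952.5 and 881.5 to 623.4 and 533.6 (log2 -0.65, SE 0.15, adjusted p = 0.0494). Its other tested probe set gave 1.18 (adjusted p = 0.403). Leaving out control replicate 1 ended this call (adjusted p = 0.240), as did leaving out control replicate 2 (0.0965) or knockdown replicate 2 (0.0561). It was also lost with a pseudocount of 1 (0.0526), with median centring (0.0680) and with quantile normalization (0.0702).

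In the list of the gamma-tubulin ring complex and its anchors, which start new microtubules, 0 of 33 were called higher and 1 lower (3.03%). Both knockdown arrays were below the control arrays in 42.4% of these probe sets, beside 24% of all, and the median difference was -0.16. Akap9, a gene for a large anchoring protein of the Golgi and centrosome, fell in probe set 1446237 from 239 and 279.2 to 112.9 and 87.2 (log2 -1.25, SE 0.26, adjusted p = 0.0308). Its other 4 tested probe sets differed by -0.59 to 0.21 and were not called. Leaving out control replicate 1 ended this call (adjusted p = 0.0592), as did leaving out control replicate 2 (0.117).

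The list of microtubule dynamics had 0 of 67 probe sets called and 12 at an unadjusted p under 0.05 in limma, with a median of -0.03. Kif2a, a kinesin that takes microtubules apart, had the smallest p (log2 -0.85, SE 0.20, adjusted p = 0.0530), and its other 3 tested probe sets lay between -0.26 and 0.04. The list of structural microtubule-associated proteins also had 0 of 48 called and 4 at an unadjusted p under 0.05, with a median of 0.04. Its smallest p was that of Macf1, a gene for a protein that links microtubules and actin (log2 -0.94, SE 0.26, adjusted p = 0.0906), for which the other 2 probe sets gave -0.06 each.

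Of 89 tested probe sets for microtubule motors, 2 were called higher and 2 lower (2.25% each), and the median was 0.11. A positive difference was found in 67.4%, beside 49.3% of all, and 22 had an unadjusted p under 0.05 in limma. Both knockdown arrays lay above the control arrays in 37.1%, beside 21.6% of all, and below them in 20.2%, beside 24% of all. Dynlt3, a dynein light chain gene, rose in probe set 1449929 from 1872.4 and 1953 to 2915.8 and 3138.2 (log2 0.66, SE 0.12, adjusted p = 0.0189) and in 1449928 by 0.69 (SE 0.14, adjusted p = 0.0263). Probe set 1459854 of it gave 0.57 (adjusted p = 0.0530) and the brightest 0.23 (adjusted p = 0.377). Kif1b, a kinesin that carries mitochondria and vesicles, fell in 1451200 from 991.7 and 838.8 to 527.4 and 458.6 (log2 -0.87, SE 0.16, adjusted p = 0.0189). Its other 6 probe sets ranged from -0.62 to 0.43 and were not called. Pafah1b1, which encodes the dynein regulator LIS1, fell in 1417086 by 0.61 log2 units (SE 0.13, adjusted p = 0.0332), with -1.56 to 0.11 in its other 4. Without control replicate 1 all 4 motor calls were lost (adjusted p = 0.0953 and 0.123 for Dynlt3, 0.107 for Kif1b and 0.115 for Pafah1b1), and without control replicate 2 that of Pafah1b1 (0.149). The 6 called probe sets of the 7 lists lost their calls, as Tuba4a 1417374 did, without the level filter and without the variance trend.

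**Figure D5:**
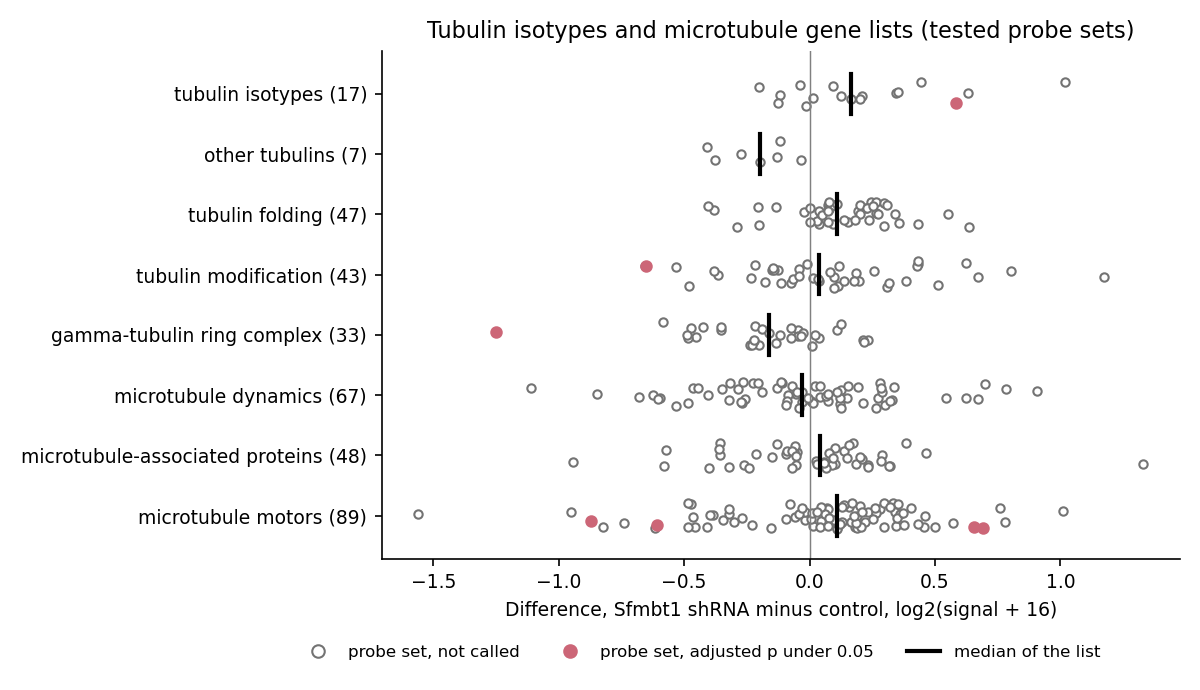
Difference (knockdown minus control, log2, horizontal axis) of every tested probe set of the tubulin isotypes and of the 7 microtubule lists, with the number tested in brackets. Filled points were called, and the vertical bar is the median of the list, from -0.20 in the other tubulins to 0.17 in the tubulin isotypes.

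The cell type of the label was checked against marker genes. All 5 myoblast markers were above background on all 4 arrays, with a summed signal of 12782.2 and 14402.8 with the control shRNA against 12499.5 and 13224.4 after knockdown. Of their 6 tested probe sets 0 were called and 1 had a positive difference, with a median of -0.20. In 66.7% of them both knockdown arrays lay below the control arrays, beside 24% of all. Markers of differentiated muscle had a median difference of 2 log2 units. Their summed signal was 1467 and 1125.6 with the control shRNA against 4185.2 and 4515.9 after knockdown. Of the 6 tested probe sets 4 were called higher (Myog, Acta1, Myh3 and Tnnt1, by 1.70 to 2.60 log2 units), while those of Ckm were not. The lowest difference of the 6 was -0.25. In 1 of the 6 (16.7%, beside 24% of all) both knockdown arrays lay below the control arrays. The highest difference was that of Tnnt1. Its probe set read 102.2 and 19.6 with the control shRNA, the second value in the background range. Its difference was 3.46 without control replicate 1, 1.73 without control replicate 2 and 2.12 with a floor at background. The part of this shift in the Tuba4a difference was not tested. For Tubb3 the neuron markers were read as well. Their sum was 5706.3 and 5826.2 with the control shRNA against 3554.7 and 4286.7 after knockdown, but the 7 tested probe sets had a median difference of -0.08. The knockdown arrays lay below the control arrays in 2 of the 7 (28.6%, beside 24% of all), both of Nefl, a neurofilament gene. Of the 7, 1 was called lower (14.3%, beside 1.43% of all), a Nefl probe set (log2 -0.86, SE 0.12, adjusted p = 0.00451). Both probe sets of Snap25 were at or under background on every array. Of the other lists, 0 of 6 adipocyte, 1 of 5 endothelial and 5 of 7 macrophage probe sets were above background on all arrays, with Pecam1, Ptprc, Adipoq and Lep above it on none. The adipocyte probe sets summed to 184.6 and 151.3 with the control shRNA against 256.6 and 277.3 after knockdown, and the tested one, of Fabp4, differed by 0.75 (adjusted p = 0.382). The endothelial ones summed to 413.8 and 472.9 with the control shRNA against 393.4 and 385.8 after knockdown. The macrophage probe sets summed to 1105.5 and 1116.2 with the control shRNA against 923.9 and 1165.1 after knockdown.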

How the data were processed

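Total RNA of 4 C2C12 cultures was hybridised as biotin-labelled cRNA to 1 Affymetrix array each. The deposited values are linear signal intensities that the authors made in GCOS by the MAS5 method (named in the submitters' processing notes); versions and the scaling between arrays are not given in the sources used here. Median signals ran from 92.8 to 102.7. The values were used as deposited, transformed as log2(signal + 16) and filtered to the upper 60% of mean level (a signal of 57.3). The number of arrays limits the precision.

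Of 45101 probe sets, 34945 had 1 gene, 932 several, 9160 none in the annotation table, and 64 were controls. Symbols were matched by gene identifier to RefSeq of GRCm38.p6 (34741 matched).

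Knockdown and control were compared with limma 3.58.1 (lmFit, eBayes with trend; 2 residual and 9.6 prior degrees of freedom) in R 4.3.3, two-sided, over all tested probe sets. The fit was also run on simulated data of 22893 probe sets with 200 changed (10 runs). There it recovered 0.9% of differences of 0.5 log2 units and 28.5% of those of 1 log2 unit. These shares hold for that simulated setting, which need not match the arrays. The members and lists were chosen with earlier results of these data known. Named were all members and, in each list, called genes or else the gene with the smallest p; Stk16, Glb1l and Dnajb2 were named as neighbours of Tuba4a after its values were seen. Alternatives changed the pseudocount, filter, normalization, variance model, replicate block, feature and arrays used. Protein sequences were not used here.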

Additional observations from a re-analysis of the deposited data

Results flagged for a closer look

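Probe sets that the annotation gives to several genes were outside the tested set, and in 3 of the 7 that name an alpha- or beta-tubulin gene both knockdown arrays lay above both control arrays. Probe set 1416128, shared by Gm6682 and Tuba1c, had a mean signal of 366 ± 82.7 in the control and 530.9 ± 83.2 in the knockdown (SD, n = 2 each). Probe set 1423846, shared by Gm5620 and Tuba1b, had 27792 ± 638 and 29025 ± 585. Probe set 1448296, shared by Tuba3b and Tuba3a, had 699 ± 139 and 1072 ± 66.8. The differences were not tested, and 21.6% of all tested probe sets showed the same separation. In the rest of the 7 the groups overlapped. Their log2 differences were -0.13 in 1433584 (Gm6682 and Tuba1a) and -0.10 in 1449682 (Tubb2a-ps2 and Tubb2b). They were 0.18 in 1448232 (Gm6682 and Tuba1c) and 0.36 in 1416311 (Tuba3b and Tuba3a).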

How the results depend on the processing

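The called Tuba4a probe set kept its direction under all 14 alternatives that tested it (0.52 to 0.65) and its call under 10. Of the 9 tubulin genes' differences, 212 values over all alternatives kept direction and side, 10 came to pass the threshold, 4 lost it and 11 changed sign. Causes were not tested.

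Tubulin probe sets called higher, 1 as reported, numbered 0 without the filter, without the variance trend and with the brightest probe set per gene, 2 with the upper 40% and with quantile normalization, 3 with median centring, and 0 to 4 leaving out each array. Without probe sets of shared type (suffix _s, _x or _a), only 10 tubulin probe sets were tested, of which 1 was called. Over all probe sets, 220 higher and 328 lower as reported became 22 and 41 without the filter, 359 and 591 with the upper 40%, and 0 and 0 without the trend (2913 at an unadjusted p under 0.05 in limma). They became 46 and 62 with the mean per gene. Higher calls were 401 with centring and 132 without probe sets of shared type (suffix _s, _x or _a), and lower calls 207 with the brightest per gene. Leaving out each array gave 126 to 730 higher and 171 to 1040 lower.

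Centring turned Tubb2a 1427838 to 0.0046 and Tubb4b 1423642 to 0.026, and quantile normalization turned Tubb2a 1427838 to 4.7e-04 and Tubb5 1416256 to -0.036. Leaving out each array gave -0.18 to 0.11 for Tubb2a 1427838, -0.13 to 0.55 for Tubb2b, -0.13 to 0.094 for Tubb4b 1423642, -0.14 to 0.17 for Tubb4b 1456470 and -0.50 to 0.25 for Tubb6 1446353.

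The deviations of same-numbered arrays had a correlation of 0.00951 over all tested probe sets. As 1 value over all of them, it cannot settle whether the numbers pair the arrays. With a replicate block 3 tubulin probe sets and 379 of all were called higher and 478 of all lower. A floor at the background limit, chosen after seeing the data, left the tubulin count at 1. With 2 arrays a group, a difference that was not called may still be present; dim probe sets near background have the widest intervals.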
